A study of Mus musculus with 12 samples.

Results

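The genes described here are the 8 members of the suppressor of cytokine signalling (SOCS) family, Socs1 to Socs7 and Cish. They were taken by name, and each was read from the probe sets that the platform annotation pairs with that symbol alone. All 8 were measured, by 12 probe sets, among 19938 genes in all. Where a gene had several probe sets, the one with the highest mean over the 12 arrays was used. The arrays came from marrow of C57B/6 mouse tibia and femur grown for 6 days with 20 ng/ml recombinant GM-CSF, a cytokine that drives myeloid growth. The dendritic cells, GM-DC, and the macrophages, GM-MF, of these cultures were left without stimulus or given 10 ng/ml lipopolysaccharide (LPS, a bacterial ligand of Toll-like receptor 4) for 4 hours. This gave 4 groups of 3 arrays, and all 4 groups had received GM-CSF. How the GM-DC and GM-MF were parted from each other is not given in the sources used here.

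SOCS proteins are feedback inhibitors. A cytokine bound to its receptor activates Janus kinases (JAKs), which phosphorylate STAT transcription factors, and the STATs then switch on genes that include the SOCS genes themselves. The SOCS proteins bind phosphorylated receptors or kinases through an SH2 domain and bring in a ubiquitin ligase through the SOCS box. SOCS1 and SOCS3 can also block JAK activity directly through a short kinase inhibitory region. In macrophages and dendritic cells SOCS1 is best known for restraining interferon signals and SOCS3 for restraining receptors that use gp130 and the G-CSF receptor. CIS (from Cish) and SOCS2 are typical products of STAT5, the factor that GM-CSF activates.

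Values are log2 expression as deposited, an error after ± is an SD over 3 arrays for a level and the standard error of the limma fit for a difference, and a gene is said to pass, rise or fall at a Benjamini-Hochberg adjusted p under 0.05 over all 19938 genes. Whether replicates were separate mice or cultures is not in the labels, so the p-values refer to the spread seen among these arrays, possibly a technical one. Within a group the arrays had correlations of 0.993 to 0.996 over genes, and array medians lay between 4.41 and 4.54. Every member was above the array median on all 12 arrays. The fixed markers went with the labels for macrophages, where 6 of 6 were higher in GM-MF with and without LPS, and for dendritic cells, where 5 of 6 were higher in GM-DC and Itgax was lower. Dendritic markers averaged 9.74 to 10.02 on GM-DC arrays, 6.20 to 6.73 on GM-MF arrays without LPS and 7.05 to 7.53 on those with it. In GM-MF 4 of these 6 rose with LPS, Ccr7 (2.47 ± 0.26), Fscn1 (1.82 ± 0.32), Cd83 (1.05 ± 0.21) and Zbtb46 (0.40 ± 0.12), in the same arrays in which Socs1, Socs3, Cish and Socs7 rose, and their part in those rises was not tested. In GM-DC none of the 6 passed for LPS. Macrophage markers averaged 5.63 to 6.08 on GM-DC arrays and 9.71 to 10.12 on GM-MF arrays. In GM-DC 3 of these 6 rose with LPS, Adgre1 (1.24 ± 0.14), Mertk (1.00 ± 0.16) and Cd14 (0.76 ± 0.14), and Csf1r fell (-1.62 ± 0.12). Socs3 rose in the same arrays, and the part of these shifts in that rise was not tested. In GM-MF 2 of the macrophage markers rose with LPS and 1 fell. Lists for B cells, T cells, mast cells and erythroid cells averaged between 3.17 and 4.55 on every array. Neutrophil and granule markers averaged 5.49 to 5.85 without LPS and 5.55 to 6.10 with it. Of these 6, 1 was higher in GM-DC and 2 lower without LPS, and 1 higher and 3 lower with it. Mpo was the higher one, and S100a8 was among the lower (-0.94 ± 0.11 without and -1.50 ± 0.11 with LPS). In such bulk samples fewer cells of a type and less RNA per cell cannot be told apart.

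Socs2 differed most between the cell types without LPS and Socs3 with LPS, Socs1, Socs3 and Cish rose most with LPS in GM-MF, and Socs4 and Socs5 passed in no comparison. Promoter sequence was at hand in RefSeq (GRCm38.p6) for 4 of the 8 members, Socs1, Socs3, Cish and Socs4. The stretches of the first 3 are shown, from 200 bases before to 20 bases after the annotated start, because these 3 members had the largest LPS differences in GM-MF. Capitals mark matches to a STAT site (TTCNNNGAA) in Socs3 and Cish and to the interferon-stimulated response element, GAAA repeated after any 2 bases, in Socs1.
Socs1 (chr16:10785517-10785736, - strand): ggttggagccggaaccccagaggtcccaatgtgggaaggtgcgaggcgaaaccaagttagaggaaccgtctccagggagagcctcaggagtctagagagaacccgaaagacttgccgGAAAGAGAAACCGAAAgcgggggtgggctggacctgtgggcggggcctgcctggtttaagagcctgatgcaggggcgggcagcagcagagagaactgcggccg
Socs3 (chr11:117969347-117969566, - strand): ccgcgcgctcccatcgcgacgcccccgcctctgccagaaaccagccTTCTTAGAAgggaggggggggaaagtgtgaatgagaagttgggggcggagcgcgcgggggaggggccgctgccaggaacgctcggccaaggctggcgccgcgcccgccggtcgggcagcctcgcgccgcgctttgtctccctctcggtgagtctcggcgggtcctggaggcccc
Cish (chr9:107296459-107296678, + strand): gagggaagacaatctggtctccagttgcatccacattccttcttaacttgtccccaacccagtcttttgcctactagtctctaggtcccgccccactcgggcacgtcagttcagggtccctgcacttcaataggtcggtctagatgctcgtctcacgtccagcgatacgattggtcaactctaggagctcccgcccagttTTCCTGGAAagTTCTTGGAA

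The Socs1 stretch held 2 overlapping matches to the interferon element, which begin at positions -83 and -77 from the start and share a GAAA. That element was found in 3.44% of the 32851 promoters of the table, searched on both strands over 300 bases each. Socs3 had 1 STAT site, beginning at position -154. Cish had 2 STAT sites, beginning at positions 1 and 12, and 8.30% of all promoters held at least 1. The kappa B site, the motif of NF-kB, was found in 8.46% of promoters and in none of the 4 members, and Socs4 held no match to any of the 3 motifs. A match describes these letters only.

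**Figure D1:**
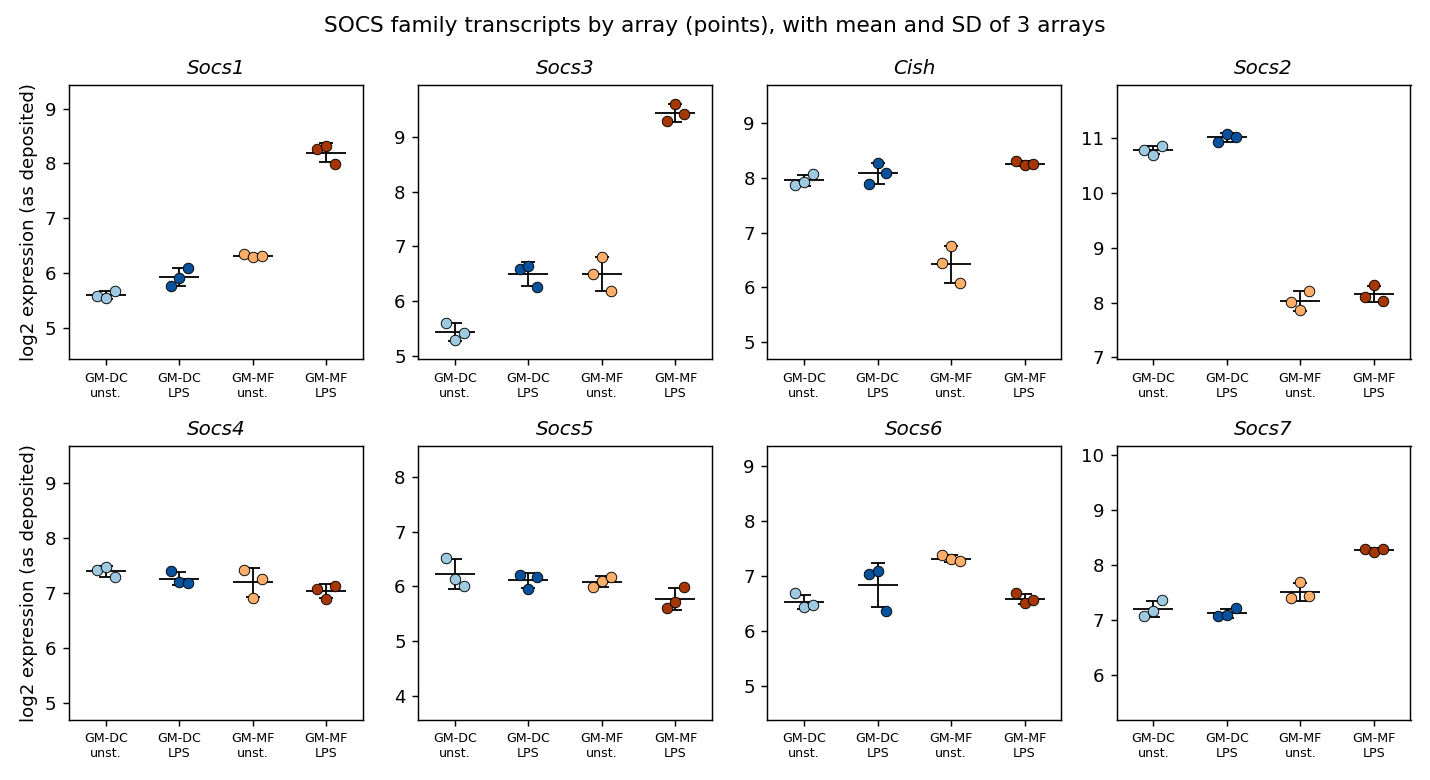
Log2 expression of each SOCS family gene on every array (points), with the mean and SD of the 3 arrays of a group (bars); x axis, the 4 groups; each y axis spans 5 log2 units around its gene. Socs1 and Socs3 stand apart in GM-MF with LPS, Cish is low in GM-MF without LPS alone, and Socs2 separates GM-DC (10.70 to 11.08) from GM-MF (7.86 to 8.32).

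Socs1, which blocks JAKs downstream of the interferon receptors, was highest in GM-MF with LPS. Without LPS its level was 5.58, 5.54 and 5.68 on the GM-DC arrays and 6.35, 6.29 and 6.31 on the GM-MF arrays. After LPS it was 5.77, 5.90 and 6.10 in GM-DC and 8.27, 8.32 and 8.0 in GM-MF. No 2 of the 4 groups overlapped, and the order from low to high was GM-DC, GM-DC with LPS, GM-MF, GM-MF with LPS. LPS raised Socs1 in GM-MF by 1.88 ± 0.11 (3.69-fold, adjusted p = 3.74e-08), a size that 0.607% of all genes exceeded. In GM-DC the difference was 0.32 ± 0.11 (adjusted p = 0.0945), which did not pass, although it did among the genes with a mean above the median (adjusted p = 0.0459). The response was smaller in GM-DC by a tested difference of -1.56 ± 0.16 (adjusted p = 1.86e-05). GM-DC thus had less Socs1 than GM-MF both without LPS (-0.72 ± 0.11, adjusted p = 9.82e-05) and with it (-2.27 ± 0.11, 4.84-fold, adjusted p = 3.54e-10).

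Socs3, the inhibitor of signals through gp130, had the widest range of the family, with group means 4.00 apart on the log2 scale, and 1.55% of genes had a wider one. Its levels without LPS were 5.61, 5.29 and 5.42 in GM-DC and 6.49, 6.80 and 6.19 in GM-MF. With LPS they were 6.59, 6.64 and 6.25 in GM-DC and 9.29, 9.60 and 9.41 in GM-MF. Stimulated GM-DC and unstimulated GM-MF lay at the same height and overlapped, while the lowest and the highest group stood clear of both. LPS raised Socs3 in GM-DC by 1.06 ± 0.16 (2.08-fold, adjusted p = 0.000386) and in GM-MF by 2.94 ± 0.16 (7.68-fold, adjusted p = 1.17e-08). It was the only member called for LPS in GM-DC. The response was smaller in GM-DC than in GM-MF (-1.88 ± 0.22, adjusted p = 6.97e-05). Between cell types GM-DC had less Socs3 without LPS (-1.05 ± 0.16, adjusted p = 5.60e-05) and with LPS (-2.94 ± 0.16, 7.67-fold, adjusted p = 7.70e-10). The other probe set of Socs3 differed with LPS by 1.00 ± 0.19 for GM-DC and 3.28 ± 0.19 for GM-MF. Its cell type differences were -0.60 ± 0.19 without LPS and -2.88 ± 0.19 with it. On that probe set stimulated GM-DC (mean 6.22) lay above unstimulated GM-MF (mean 5.82).

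Cish encodes CIS, which competes with STAT5 for docking sites on cytokine receptors. Without LPS its level was 7.87, 7.92 and 8.07 in GM-DC and 6.44, 6.75 and 6.08 in GM-MF. After LPS the arrays read 7.88, 8.26 and 8.09 in GM-DC and 8.31, 8.22 and 8.25 in GM-MF. Unstimulated GM-MF was thus the low group, with no overlap with the other 3 groups. GM-DC with LPS overlapped both GM-DC without it and GM-MF with it. Cish was 2.89-fold higher in GM-DC than in GM-MF without LPS (1.53 ± 0.15, adjusted p = 5.94e-07). With LPS the cell types differed by -0.18 ± 0.15 (95% confidence interval -0.49 to 0.14, adjusted p = 0.411). LPS raised Cish in GM-MF by 1.84 ± 0.15 (3.58-fold, adjusted p = 6.71e-07), while in GM-DC the difference was 0.13 ± 0.15 (interval -0.19 to 0.44, adjusted p = 0.754). The responses differed by -1.71 ± 0.21 (adjusted p = 9.80e-05).

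Socs2, a STAT5-induced inhibitor best known for limiting growth hormone signals, separated the cell types. Its level was 10.79, 10.70 and 10.86 in unstimulated GM-DC and 10.93, 11.08 and 11.02 in GM-DC with LPS. In GM-MF it was 8.02, 7.86 and 8.21 without LPS and 8.11, 8.32 and 8.04 with LPS. Every GM-DC array was above every GM-MF array, the GM-DC groups did not overlap each other, and the GM-MF groups did. GM-DC had 6.73-fold more without LPS (2.75 ± 0.11, adjusted p = 4.61e-11) and 7.25-fold more with LPS (2.86 ± 0.11, adjusted p = 3.28e-11), differences that 2.48% and 2.19% of all genes exceeded. The LPS difference was 0.23 ± 0.11 in GM-DC (interval -0.0092 to 0.47, adjusted p = 0.281) and 0.13 ± 0.11 in GM-MF (interval -0.12 to 0.37, adjusted p = 0.559), and neither passed. Their difference was 0.11 ± 0.16 (interval -0.24 to 0.45). The other probe set of Socs2 differed between the cell types by 2.25 ± 0.12 without and 2.40 ± 0.12 with LPS. The growth hormone receptor Ghr had group means of 2.74 to 2.84, under the array medians, and passed in no comparison.

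**Figure D2:**
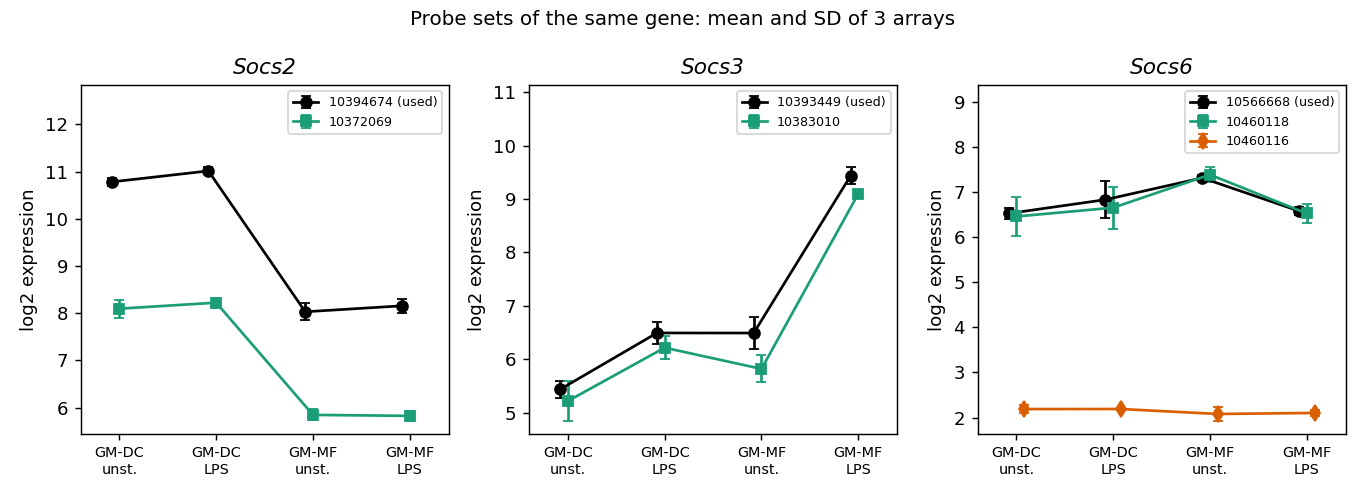
Mean log2 expression (y axis) in the 4 groups (x axis) for each probe set of Socs2, Socs3 and Socs6, with SD of 3 arrays; black marks the probe set used. Probe sets of Socs2 and Socs3 run roughly in parallel, and 1 of the 3 for Socs6 lies flat between 2.08 and 2.19.

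Socs6 and Socs7 belong to the members with a long N-terminal part. Socs6, which binds growth factor receptors and insulin receptor substrates, was the only member that fell with LPS in GM-MF by the limma test. Its level without LPS was 6.68, 6.43 and 6.47 in GM-DC and 7.39, 7.30 and 7.26 in GM-MF. With LPS it was 7.04, 7.10 and 6.36 in GM-DC and 6.68, 6.51 and 6.56 in GM-MF. The unstimulated GM-MF arrays were the highest and stood clear of the other groups, which overlapped. LPS lowered Socs6 in GM-MF by a log2 difference of -0.74 ± 0.16 (adjusted p = 0.00385). GM-DC had less than GM-MF without LPS (-0.79 ± 0.16, adjusted p = 0.000885), and with LPS the difference was 0.25 ± 0.16 (adjusted p = 0.259). The LPS responses differed by 1.04 ± 0.22 (adjusted p = 0.00842). Replicate 3 of GM-DC with LPS was the low one of its group (6.36), and without it the LPS difference in GM-DC went from 0.31 (adjusted p = 0.321) to 0.54 (adjusted p = 0.00544) and the cell type difference with LPS to 0.49 (adjusted p = 0.00299). Another probe set, annotated to the same symbol, Socs6, fell with LPS in GM-MF by 0.86 on the log2 scale (adjusted p = 0.049 over all 35556 probe sets). The difference of responses of that probe set was 1.06 ± 0.35 (adjusted p = 0.160 over all probe sets), which did not pass. The last one had group means of 2.08 to 2.19, and with the mean of the 3 probe sets the difference of responses was 0.69 (adjusted p = 0.0543), which did not pass.

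Socs7, which binds the adaptor NCK, read 7.08, 7.16 and 7.35 in unstimulated GM-DC and 7.39, 7.69 and 7.44 in unstimulated GM-MF. With LPS it read 7.06, 7.09 and 7.22 in GM-DC and 8.29, 8.23 and 8.29 in GM-MF. Stimulated GM-MF stood above all other arrays, and the GM-DC groups overlapped each other. LPS raised Socs7 in GM-MF by 0.77 ± 0.11 (1.70-fold, adjusted p = 0.000136). In GM-DC the difference was -0.07 ± 0.11 (interval -0.30 to 0.16), and the responses differed by -0.84 ± 0.15 (adjusted p = 0.00266). GM-DC had less Socs7 than GM-MF with LPS (-1.15 ± 0.11, adjusted p = 4.51e-07). The smaller difference without LPS (-0.31 ± 0.11, adjusted p = 0.037) did not pass under 6 of 21 other settings, among them without GM-MF unstimulated replicate 2 (adjusted p = 0.156).

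Socs4 and Socs5, close relatives linked to signals of the epidermal growth factor receptor, did not pass in any of the 5 comparisons. Socs4 ran from 6.89 to 7.48 over the 12 arrays and Socs5 from 5.61 to 6.53, and among the 4 comparisons of groups the arrays did not overlap once, for Socs4 between the cell types with LPS. The largest differences were 0.23 ± 0.13 for Socs4 and 0.34 ± 0.14 for Socs5, both between GM-DC and GM-MF with LPS. Their 95% intervals ran from -0.05 to 0.51 and from 0.04 to 0.64. The Socs5 difference (adjusted p = 0.079) passed under 3 of 21 other settings, among them without GM-MF LPS replicate 3 (0.45, adjusted p = 0.0353).

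**Figure D3:**
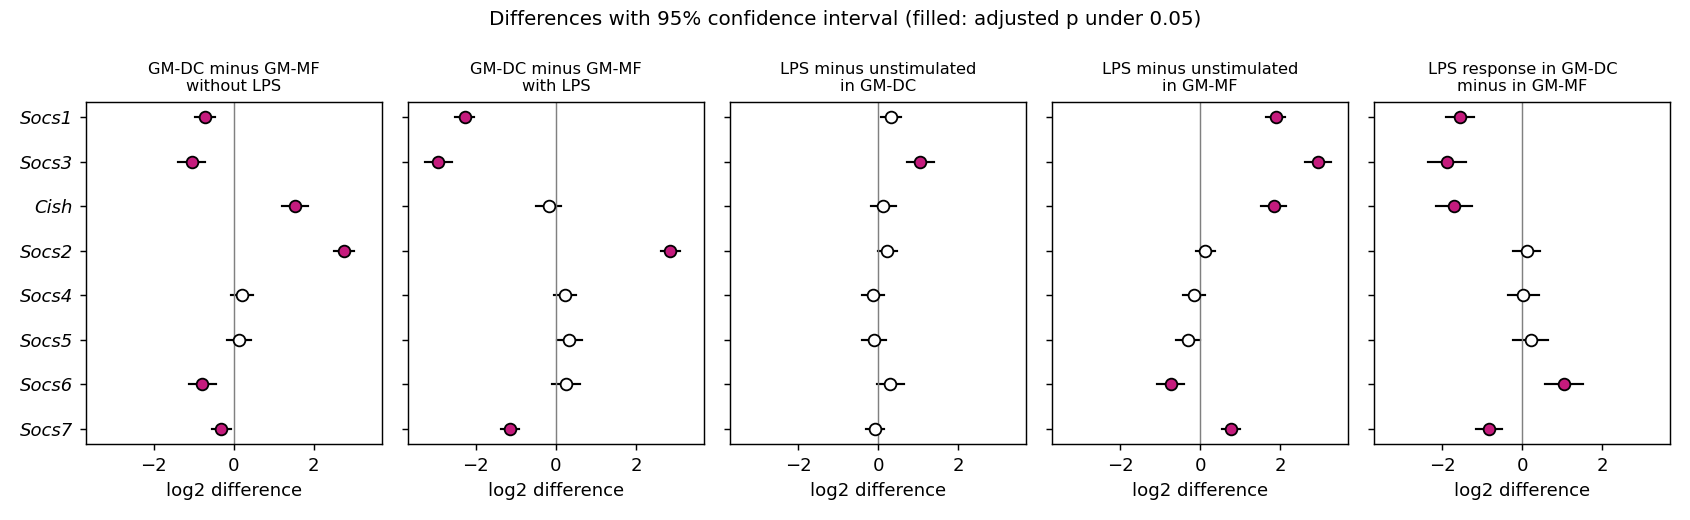
Log2 differences (x axis) of the 8 SOCS family genes (y axis) in the 5 comparisons, with 95% confidence intervals from the limma fit; filled points had an adjusted p under 0.05. For LPS in GM-DC 1 member is filled, Socs3 (1.06), against 5 in GM-MF, where Socs3 (2.94), Socs1 (1.88), Cish (1.84) and Socs7 (0.77) lie above 0 and Socs6 (-0.74) below it.

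Counted over the family, 6 of 8 members passed between the cell types without LPS, where 34.2% of all genes passed. Of these, 2 were higher and 4 lower in GM-DC, beside 18.0% and 16.2% of all genes. With LPS 4 of 8 passed, against 36.3% of all genes, 1 higher (20.9% of all genes) and 3 lower (15.4%). The LPS comparison passed 1 of 8 members in GM-DC, against 9.72% of all genes, and this member rose, as did 5.23% of all genes, while 4.49% fell. In GM-MF 5 of 8 passed, against 17.4% of all genes. Of those 5, 4 rose and 1 fell, while 6.54% of all genes rose and 10.8% fell. These splits over all genes depended on scaling: of the genes called for LPS in GM-MF 37.7% were higher as deposited and 49.4% after cyclic loess, and between the cell types with LPS 57.6% and 47.2%. The difference of LPS responses passed for 5 of 8 members, against 7.59% of all genes. It was negative for 4 members and positive for 1, beside 3.06% and 4.53% of all genes. Groups did not overlap for 6 members between the cell types without LPS (44.4% of all genes), 5 with LPS (44.9%), 3 for LPS in GM-DC (24.3%) and 5 for LPS in GM-MF (31.5%). The median size of the LPS difference in GM-MF was 0.75 for the members and 0.15 for all genes, and in GM-DC 0.18 and 0.12. The comparisons between cell types and those with LPS share arrays and are not independent of each other.

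Of 20 ligands of JAK-STAT receptors, whose signals these inhibitors restrain, 9 rose with LPS in GM-DC and 12 in GM-MF. None fell, and 11 and 8 did not pass. The median LPS difference of the list was 0.49 for GM-DC and 0.95 for GM-MF, beside -0.01 and -0.02 for all genes. Il6, whose signal SOCS3 restrains, rose by 1.98 ± 0.29 in GM-DC and 6.21 ± 0.29 in GM-MF. Il10, the anti-inflammatory cytokine that signals through STAT3, rose by 1.49 ± 0.21 and 4.55 ± 0.21, from levels under the array medians in both cell types. Ifnb1, interferon beta, rose by 0.93 ± 0.22 and 2.95 ± 0.22, and remained under the array medians in GM-DC with LPS (3.94 ± 0.04). The response was smaller in GM-DC for 9 of the 20 ligands, Il6 (-4.23 ± 0.41) and Il10 (-3.06 ± 0.29) among them. It was larger for 2, Il23a (1.61 ± 0.29) and Ebi3 (1.05 ± 0.18), which encode a subunit each of interleukin-23 and interleukin-27. The genes of the partner subunits, Il12b and Il27, had the wider step in GM-MF. With LPS mean Il12b went from 7.43 to 9.93 in GM-DC and from 4.60 to 9.87 in GM-MF. Mean Il27 went from 5.59 to 6.47 in GM-DC and from 6.74 to 9.90 in GM-MF.

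Receptor chains went both ways. Of 28 measured chains 6 were higher and 13 lower in GM-DC without LPS, 5 were higher and 17 lower with LPS, and 3 rose and 7 fell with LPS in GM-DC against 8 and 6 in GM-MF. Il6st, which encodes gp130, the docking site of SOCS3, fell with LPS in GM-DC (-0.59 ± 0.13) and in GM-MF (-1.35 ± 0.13), and Il6ra, its partner, fell too (-0.97 ± 0.15 and -1.59 ± 0.15). The GM-CSF receptor showed a split between its chains. The alpha chain Csf2ra was lower in GM-DC (-1.74 ± 0.12 without and -1.58 ± 0.12 with LPS), whereas the beta chains Csf2rb (0.48 ± 0.09 and 0.40 ± 0.09) and Csf2rb2 (0.44 ± 0.10 and 0.40 ± 0.10) were higher. Il2ra, a STAT5 target that encodes an interleukin-2 receptor chain, was higher in GM-DC (5.64 ± 0.18 without LPS) and rose with LPS in GM-MF (2.30 ± 0.18). The largest negative cell type differences of the list were those of Il10rb (-1.86 ± 0.13) and Lepr (-2.01 ± 0.19) without LPS.

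Among the kinases Jak2, which acts on the GM-CSF receptor, was lowest in unstimulated GM-MF, as Cish was. Its mean level was 9.95 ± 0.19 in unstimulated GM-MF and 10.95 to 11.17 in the other 3 groups. It was higher in GM-DC without LPS (1.21 ± 0.12, adjusted p = 6.13e-07) and rose with LPS in GM-MF (1.19 ± 0.12). Jak1 was lower in GM-DC (-0.31 ± 0.10) and Tyk2 higher (0.69 ± 0.11), both without LPS. Of the 6 measured STATs, 4 were higher and 1 lower in GM-DC without LPS. The largest difference was that of Stat4, which acts downstream of interleukin-12 (7.59 ± 0.13 without and 6.63 ± 0.13 with LPS), and Stat4 rose with LPS in GM-MF (0.94 ± 0.13). Of the STAT5 genes, Stat5a and Stat5b were higher in GM-DC without LPS (1.12 ± 0.16 and 0.39 ± 0.12). With LPS they differed by 0.26 ± 0.16 and 0.23 ± 0.12, which did not pass. Stat6 fell with LPS in GM-MF (-0.50 ± 0.13). Stat5a rose with LPS in GM-DC (1.05 ± 0.16) and in GM-MF (1.91 ± 0.16), and Stat3 rose in GM-MF (0.69 ± 0.11). Stat2 was the 1 STAT lower in GM-DC without LPS (-2.00 ± 0.11). With LPS Stat2 rose in GM-DC (1.90 ± 0.11) and differed by 0.01 ± 0.11 in GM-MF, a difference of responses of 1.89 ± 0.16. Its mean level was 8.16 in GM-DC and 10.16 in GM-MF without LPS, and 10.06 and 10.17 with LPS. Jak3 shares its probe set with another symbol and was not analysed here.

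Other brakes on the pathway went several ways. Of 13 such inhibitors 3 rose and none fell with LPS in GM-DC, and 3 rose and 2 fell in GM-MF. Usp18, which shuts off the type I interferon receptor, rose more in GM-DC (2.75 ± 0.13) than in GM-MF (0.72 ± 0.13), the reverse of Socs1, and the responses differed by 2.04 ± 0.18 (adjusted p = 4.48e-06). Its starting level was lower in GM-DC (-2.99 ± 0.13 without LPS). Cblb, a ubiquitin ligase (-1.44 ± 0.14), and Ptpn2, a phosphatase of JAKs and STATs (-0.90 ± 0.17), had the smaller response in GM-DC. Pias3, an inhibitor of STAT3, was higher in GM-DC with and without LPS (1.76 ± 0.15 without).

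**Figure D4:**
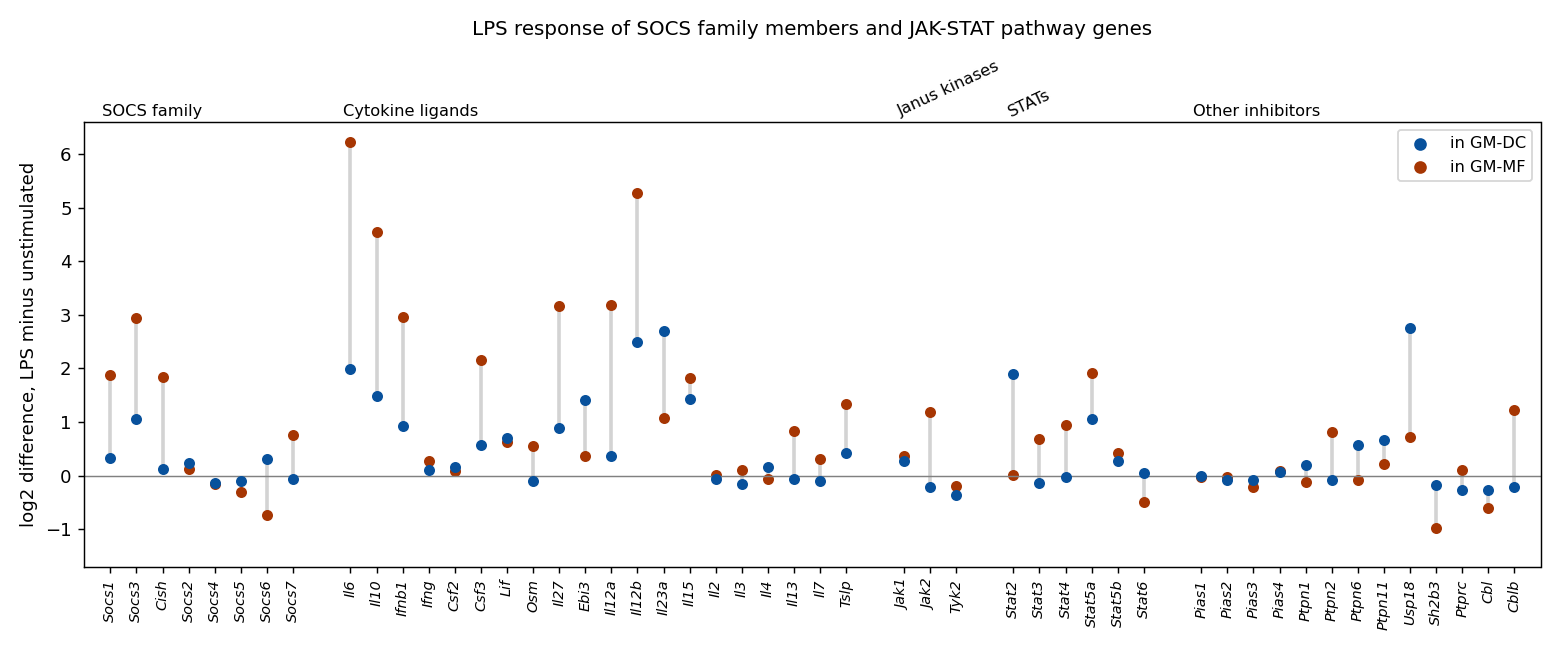
Log2 difference with LPS (y axis) in GM-DC (blue) and GM-MF (brown) for the SOCS family, cytokine ligands, Janus kinases, STATs and other inhibitors (x axis, by gene); a grey bar joins the 2 values of a gene. Socs1, Socs3 and Cish have the brown point above the blue one, as have Il6 and Il10, and Usp18 and Stat2 have the reverse.

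Interferon targets and the LPS response list were read beside Socs1. The 5 LPS response genes averaged 6.18 to 6.99 on unstimulated GM-DC arrays and 8.38 to 9.01 on unstimulated GM-MF arrays. Without LPS 3 of them, Cxcl10, Il1b and Tnf, were higher in GM-MF and 2, Il6 and Il12b, higher in GM-DC, and their part in the SOCS differences was not tested. Of 7 measured interferon targets, 2 were higher and 4 lower in GM-DC without LPS. With LPS 5 rose in GM-DC and 6 rose and 1 fell in GM-MF. Ifit1 rose by 4.66 ± 0.15 in GM-DC and 0.69 ± 0.15 in GM-MF, a difference of responses of 3.97 ± 0.21, while Cxcl9, a target of interferon gamma, had the smaller response in GM-DC (-1.97 ± 0.26), as Socs1 had.

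Among 18607 other named genes, those nearest in pattern were found by the root mean square difference over the 12 arrays after each gene was centred on its own mean. All values come from the same 12 arrays. For Socs1 they were Htra4 (0.21), Elovl2 (0.29) and Gbp11 (0.29), and for Socs3 Il27 (0.29), Tagap (0.35) and Hdc (0.40). Il27 encodes a cytokine subunit, and Hdc the enzyme that makes histamine. For Cish the nearest was Gadd45b (0.11), a stress-response gene, at 10.91 in GM-DC, 9.36 in GM-MF, 11.08 in GM-DC with LPS and 11.24 in GM-MF with LPS, followed by Csrnp1 (0.20) and Dusp16 (0.21), a MAP kinase phosphatase. Socs2 had Pip4k2a (0.16), Hsf2 (0.18) and Atrx (0.18), and Socs7 had Trmt61b (0.12), Sertad1 (0.14) and Piezo1 (0.15). Within the family the nearest of 28 pairs was Socs4 with Socs5 (0.19), and Socs1 lay about as near to Socs3 (0.57) as to Socs7 (0.58). Socs2 was far from all other members, with Socs3 the farthest (2.63). Cish (1.25) was little nearer to it than Socs5 and Socs4 (1.31 each), which passed in no comparison.

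**Figure D5:**
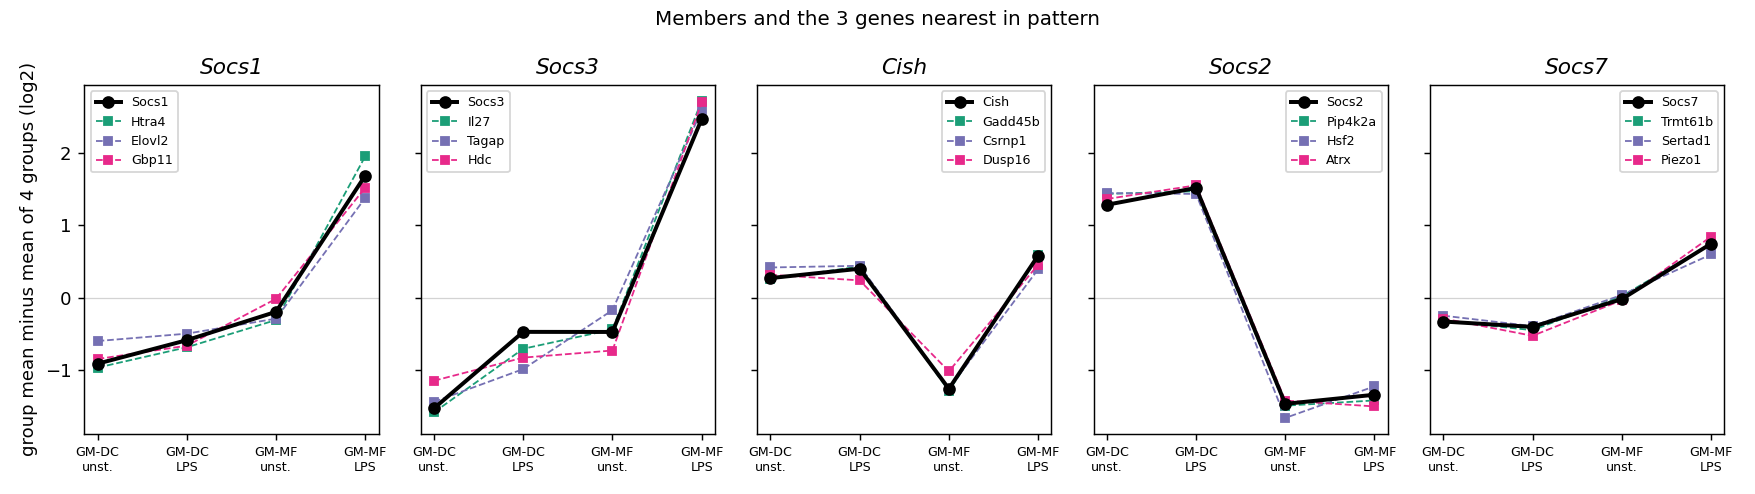
Group means minus the mean of the 4 groups (y axis, log2) for the 5 members whose group means span at least 1 (black) and the 3 genes nearest to each (dashed), in the 4 groups (x axis). The Cish panel shows the dip in unstimulated GM-MF that Gadd45b, Csrnp1 and Dusp16 have too.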

How the data were processed

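RNA of 12 samples was measured on Affymetrix GeneChip Mouse Gene 1.0 arrays, 1 array each. The table held log2 values that the authors deposited, and the submitters' processing notes name RMA and R 3.0.2. The settings of RMA and the base of the logarithm are not given in the sources used here, and base 2 was taken from the range of 1.18 to 13.7. No background call was available, so low values say nothing of absence, and the number of arrays limits the precision.

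Of 35556 probe sets, 21789 had 1 gene symbol, 1621 several and 12146 none, and 21698 of the first were matched to RefSeq GRCm38.p6 by Entrez number. One probe set per gene left 19938 genes, with no filter. Limma 3.58.1 in R 4.3.3 fitted 4 group means on 12 arrays (8 residual degrees of freedom), and eBayes without trend tested 5 contrasts two-sided. The fit was checked on simulated data for LPS in GM-DC only, with noise independent between arrays, so the other contrasts were not checked. Members and gene lists were chosen with earlier results of these data known. Named genes were all members, up to 3 called genes per list and direction or all of a list of at most 7, and the 3 genes nearest in pattern to each member whose group means span at least 1. Ghr and Csf2rb fall outside that rule and were named with their values known. Protein sequences were not used here.

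The same replicate numbers, 1 to 3, occur in all groups. Deviations of same-numbered arrays from their group means correlated at 0.119 to 0.363 between GM-DC groups and 0.104 to 0.257 between GM-MF groups. For arrays with other numbers the correlations were -0.250 to 0.164 and -0.216 to 0.025. In GM-MF 3 of 3 unstimulated arrays were closest to their own number, and in GM-DC 1 of 3. In GM-MF same-numbered arrays were thus the closer ones, while in GM-DC the ranges overlap and pairing is less clear. With 3 arrays a group, whether the numbers pair arrays is not settled. Between cell types same-numbered arrays correlated at -0.168 to 0.156, without clear pairing. Alternatives were 3 scalings, a filter on low means, averaged probe sets, 2 variance models, fits on the groups compared, replicate blocks and leaving out each array.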

Additional observations from a re-analysis of the deposited data

Results flagged for a closer look

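For 5 of the 8 SOCS family genes the LPS response differed between GM-DC and GM-MF by the limma test of the difference itself. Those with the smaller response in GM-DC were Socs3 (-1.88 ± 0.22 on the log2 scale, adjusted p = 6.97e-05, 3 arrays a group), Cish (-1.71 ± 0.21, adjusted p = 9.80e-05) and Socs1 (-1.56 ± 0.16, adjusted p = 1.86e-05). Socs7 differed by -0.84 ± 0.15 (adjusted p = 0.00266), where LPS gave -0.07 for GM-DC and 0.77 for GM-MF. Socs6 differed by 1.04 ± 0.22 (adjusted p = 0.00842), with 0.31 in GM-DC, which did not pass, and -0.74 in GM-MF. The Socs6 difference of responses did not pass with another of its probe sets (1.06 ± 0.35, adjusted p = 0.160 over all probe sets). Nor did it pass with the mean of its 3 probe sets (adjusted p = 0.0543).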

How the results depend on the processing

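Of 856 values of a member under another setting, 843 kept their side of the threshold, 7 lost a call, 6 gained one and none of the called differences changed sign. The count of members called for LPS in GM-DC was 1 as reported and 2 after genes under the median mean level were dropped, and ran from 1 to 2 when an array was left out, with 2 without GM-DC LPS replicate 3. The other counts remained within 1.5 times those reported under every setting that was run. Socs7 between the cell types without LPS was -0.31 (adjusted p = 0.037), with adjusted p from 0.0138 to 0.156 over its alternatives. Socs6 changed its call in 3 comparisons, each described with its levels.

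With the replicate number as a block, 6, 4, 1, 5 and 5 members passed in the 5 comparisons, and with the replicate block within each cell type, added after seeing the data, 1 passed for LPS in GM-DC, 5 in GM-MF and 5 for the difference of responses. Neither block changed a call of a member. Cell types cannot be compared with the block within each cell type. For the arrays, 3 per group limit the precision, and no call of signal over background was made.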

Other observations

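SOCS box proteins outside the SOCS family were also measured. The SPRY domain proteins Spsb1 to Spsb4, of which Spsb1, Spsb2 and Spsb4 are known to direct the breakdown of inducible nitric oxide synthase, went different ways. Like Cish, Spsb1 was higher in GM-DC without LPS (2.62 ± 0.12, adjusted p = 1.92e-10) and rose with LPS in GM-MF (2.01 ± 0.12, adjusted p = 4.80e-08). Unlike Cish, Spsb1 was also higher in GM-DC with LPS (0.88 ± 0.12, adjusted p = 3.06e-05). The LPS difference of Spsb1 in GM-DC was 0.27 ± 0.12 (adjusted p = 0.238), a difference of responses of -1.74 ± 0.17. Spsb4 was lower in GM-DC without (-1.23 ± 0.22) and with LPS (-1.28 ± 0.22). Spsb2 fell with LPS in GM-MF (-0.61 ± 0.12), as did Spsb3 (-0.49 ± 0.12). Of the elongin, cullin and RING genes through which the SOCS box acts, 6 were measured and none passed for LPS in GM-DC. Eloc was higher in GM-DC without (0.66 ± 0.09) and with LPS (0.80 ± 0.09), Cul2 rose with LPS in GM-MF (0.78 ± 0.10) and Rnf7 fell there (-0.38 ± 0.10).

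Other targets of STAT5 did not share 1 pattern with Cish and Socs2. Of 9, 3 rose and 1 fell with LPS in GM-DC, and 4 rose and 2 fell in GM-MF. Bcl2l1, which encodes the survival protein BCL-XL, rose in GM-DC (2.32 ± 0.18, adjusted p = 8.02e-07) and was -0.29 ± 0.18 in GM-MF (adjusted p = 0.363), a difference of responses of 2.61 ± 0.26. Ccnd1 rose in GM-DC (1.09 ± 0.20) and fell in GM-MF (-1.51 ± 0.20), and Ccnd2 rose in both (1.75 ± 0.18 and 2.52 ± 0.18). Of 7 targets of STAT3 and interleukin-10, 2 rose in GM-DC and 5 in GM-MF, and the response was smaller in GM-DC for 4 and larger for 1, Bcl3 (1.11 ± 0.23). The 4 were Il10, Nfil3 (-1.28 ± 0.30), Il4ra (-0.86 ± 0.17) and Sbno2 (-0.58 ± 0.15). Etv3 was higher in GM-DC (0.79 ± 0.15 without LPS), and Pim1 rose with LPS in GM-MF (0.99 ± 0.17).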
